A study of Mus musculus with 18 samples.

Results

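The 9 genes described here are 6 genes of the Hoxa cluster, Hoxa3, Hoxa5, Hoxa6, Hoxa7, Hoxa9 and Hoxa10, and 3 genes of the Hox cofactor families, Meis1, Pbx2 and Pbx3. They were taken by name from the authors' deposited comparison tables and matched by Ensembl identifier to the deposited count table, which lists 22619 genes. The names were chosen with earlier results of these data known. All 9 were found, and 17934 of the 22619 genes had at least 1 read. RNA was sequenced from thymocytes that had been sorted from wild type thymus grafts 28 days after transplantation. The sorted stages, DN3 and DP, and the graft conditions, labelled turnover and autonomy, gave 4 groups. The turnover groups had 4 libraries each, RP1140A, RP1140B, RP1141A and RP1141B. The DN3 autonomy group had 5 libraries, RP1133, RP1134, RP1135, RP1137 and RP1138, and the DP autonomy group also had 5, with RP1136 in place of RP1134. The labels name neither the host genotype nor the strain, age or sex of the mice, nor do they say what the RP numbers mark. Turnover and autonomy share no RP number, so a difference between these conditions cannot be told apart from what the numbers mark. In thymus biology, autonomy is the state in which a graft that receives no competing progenitors keeps making thymocytes from its own cells, and turnover is the state in which incoming progenitors replace them. The labels do not say that the libraries of a group came from separate animals, so every p-value below measures the spread between these libraries.

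Hoxa genes encode homeodomain transcription factors that lie side by side in a cluster, and in blood formation the middle and later Hoxa genes are active in stem cells and early progenitors and are shut off as cells mature. Meis and Pbx proteins are homeodomain proteins of the TALE class, which bind DNA together with Hox proteins and raise their selectivity. DN3 thymocytes lack CD4 and CD8 and rearrange the T cell receptor beta locus, and DP thymocytes, their descendants, carry both CD4 and CD8. Persistent activity of Hoxa genes with Meis1 is a known feature of several acute leukaemias, including some of the T lineage.

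The Hoxa7 start site and its neighbours on either side of the cluster are shown because Hoxa7 carried nearly all of the Hoxa reads while Hoxa6 and Hoxa9 carried few. The windows come from RefSeq (GRCm38.p6), run 5′ to 3′ from 250 bases before to 50 bases after an annotated start, and have each CpG dinucleotide in capitals.
Hoxa6 (chr6:52208623-52208922, minus strand): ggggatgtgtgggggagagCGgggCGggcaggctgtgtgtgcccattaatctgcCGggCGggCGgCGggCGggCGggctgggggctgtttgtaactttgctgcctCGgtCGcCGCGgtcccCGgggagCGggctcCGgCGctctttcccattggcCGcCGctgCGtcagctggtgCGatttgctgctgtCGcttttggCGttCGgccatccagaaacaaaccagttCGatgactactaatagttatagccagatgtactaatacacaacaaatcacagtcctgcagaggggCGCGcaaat
Hoxa7 (chr6:52218524-52218823, minus strand): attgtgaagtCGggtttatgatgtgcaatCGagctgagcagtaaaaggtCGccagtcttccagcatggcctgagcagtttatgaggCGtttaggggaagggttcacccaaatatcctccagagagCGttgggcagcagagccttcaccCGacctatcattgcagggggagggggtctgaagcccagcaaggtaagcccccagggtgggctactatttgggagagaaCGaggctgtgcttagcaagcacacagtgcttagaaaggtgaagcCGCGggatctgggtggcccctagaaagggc
Hoxa9 (chr6:52227321-52227620, minus strand): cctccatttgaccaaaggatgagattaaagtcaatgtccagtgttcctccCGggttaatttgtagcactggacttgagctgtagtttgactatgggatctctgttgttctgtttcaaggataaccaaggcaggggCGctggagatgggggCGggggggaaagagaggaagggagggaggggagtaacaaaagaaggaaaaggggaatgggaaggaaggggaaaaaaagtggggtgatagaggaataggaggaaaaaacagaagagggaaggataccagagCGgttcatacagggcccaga
The Hoxa6 window held 26 CpG sites and 62% G and C, the Hoxa7 window 9 and 55.7%, and the Hoxa9 window 4 and 49.7%, against medians of 7 sites and 52.7% over 32851 RefSeq windows of the same length. Hoxa7, the gene with the most reads of the 3, had neither the most nor the fewest CpG sites. Windows were found for 8 of the 9 genes. The letters TGATNNAT, a joint Hox and Pbx motif, occurred on neither strand of any of these windows, and 8.85% of all windows held them. The letters TGACAG, a Meis motif, occurred in the Hoxa3 window alone among the windows of these 8 genes, and 19.2% of all windows held them. The Hoxa7 window is 1 of 5 starts that GENCODE M21 annotates for the gene, and the data do not say which start the reads came from.

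Libraries held 5032273 to 24191044 counted reads, and 3 reads, taken as the floor for detection, equalled 0.114 to 0.568 CPM (the counts-per-million scale, with TMM-adjusted library sizes), depending on the library. This range is a fixed cut-off of 3 reads converted by library depth, and it is not an interval of error. Il2ra, the CD25 chain that defines DN3 cells, ranged from 256 to 632 CPM over the DN3 libraries and from 1.25 to 41.2 CPM over the DP libraries. Of 11 DN3 stage markers 7 were lower in DP than in DN3 cells in each condition, and 2 were higher under turnover and 3 under autonomy. Of 10 DP stage markers 9 were higher in DP cells under turnover and 10 under autonomy. Over all 11521 genes tested, 34.9% were called in either direction under turnover and 49% under autonomy. Rag1 is in both marker lists. The summed DN3 markers overlapped between the stages, at 3622 to 7584 CPM in DN3 and 5498 to 6367 CPM in DP libraries. One library stood apart. In DN3 turnover RP1141B, Cd4 was at 135 CPM and Cd8a at 385 CPM, against 0.421 to 1.96 and 2.53 to 7.34 CPM in the other 3 libraries of its group, so DN3 results for Hoxa7 are also given without it. A 0 in the count table is not by itself absence of the transcript: of 45 widely used genes, a list chosen after values were seen, Men1 and Ranbp1 were listed at 0 in all 18 libraries, and the cause was not tested.

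Most of the 9 genes were close to silent. Hoxa10, a late Hoxa gene of progenitor cells, was listed at 0 in all 18 libraries. Meis1 had 4 reads in all, Hoxa9 had 5 and Hoxa3 had 6, in each case in a single library. Pbx3 had 28 reads in 5 libraries, Hoxa6 had 33 in 3 and Hoxa5 had 71 in 5. Hoxa7 had 1337 reads in 10 libraries, which was 92.1% of all reads on the 6 Hoxa genes, and Pbx2 had 766 reads in all 18 libraries. Hoxa7 and Pbx2 were the 2 genes that passed edgeR's filter on low counts, and the other 7 were left untested in each comparison.

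**Figure D1:**
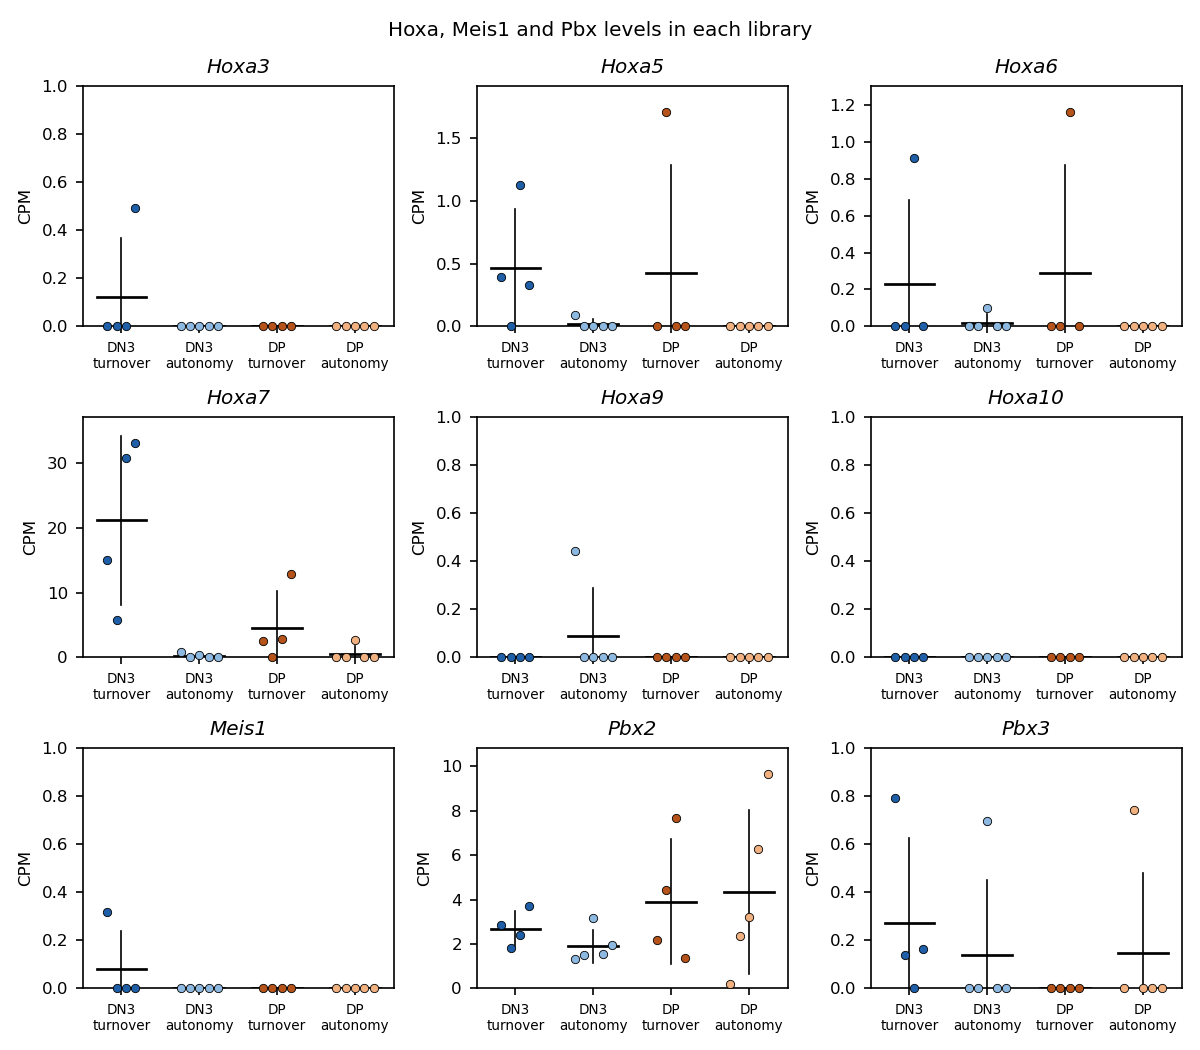
Level in CPM of each of the 9 genes (vertical axes start at 0) in every library of the 4 groups (horizontal axis). Points are libraries, horizontal bars are group means and vertical bars are the SD, cut off at 0. Hoxa7 lay at 5.80 to 33.1 CPM in DN3 turnover and below 1 CPM in DN3 autonomy, while Pbx2 was the only one of the 9 with reads in every library.

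Of the 2 tested genes, 1 was called between autonomy and turnover in DN3 cells (edgeR quasi-likelihood test, Benjamini-Hochberg adjusted p under 0.05), beside 14.9% of all 10766 genes tested. That gene was Hoxa7 (ENSMUSG00000038236), which lies on the minus strand of chromosome 6 between bases 52214491 and 52221854 of GRCm38. It encodes a homeodomain factor from the middle of the cluster. In DN3 turnover cells Hoxa7 was measured at 14.9 CPM in RP1140A, 5.80 in RP1140B, 30.8 in RP1141A and 33.1 in RP1141B, with a mean of 21.2 ± 13.0 CPM (SD, n = 4). In DN3 autonomy cells it was at 0.796 CPM in RP1133, from 9 reads, at 0.397 CPM in RP1135, from 4 reads, and listed at 0 in RP1134, RP1137 and RP1138, with a mean of 0.239 ± 0.356 CPM (SD, n = 5). Every turnover library was above every autonomy library. Such a separation was found for 18.3% of the genes tested in DN3 cells, and for 1 of the 2 tested members. Hoxa7 passed the filter on low counts in DN3 cells through its turnover reads alone. The count of 1 in 2 thus partly follows from the filter and is not support for the difference.

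Hoxa7 was 84.8-fold lower in DN3 autonomy than in DN3 turnover, a log2 fold change of -6.41 (SE 0.88, edgeR quasi-likelihood adjusted p = 0.000871). A two-sided exact permutation test on CPM gave p = 0.0159, the smallest that 4 against 5 libraries can give. That test took the A and B libraries of an RP number as separate units, which the labels do not establish. With A and B libraries summed, the log2 fold change was -6.42 (edgeR quasi-likelihood adjusted p = 0.00946). Leaving out RP1141B, the DN3 library with Cd4 and Cd8a reads, the log2 fold change was -6.10 (edgeR quasi-likelihood adjusted p = 0.00321), and the call held under all 17 alternatives run for it. Leaving out autonomy RP1133, the library with 9 of the 13 autonomy reads, moved it to -7.66. In the authors' deposited table for DN3 cells the log2 fold change of Hoxa7 was -6.38 (standard error 1.11) with an adjusted p of 6.96e-07. In bulk samples such as these, fewer cells that express a gene and less RNA per cell cannot be told apart. Of the Hoxa7 exons, 586 bases (20.4%) are shared with the antisense transcript Hoxaas3, which is not in the count table. No label says that the counting read the strand, so reads of the 2 transcripts cannot be told apart there.

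In DP cells neither tested gene was called between autonomy and turnover, beside 1.72% of 10339 genes tested. Hoxa7 was at 2.47 CPM in DP turnover RP1140A, listed at 0 in RP1140B, at 2.76 CPM in RP1141A and at 12.9 CPM in RP1141B, with a mean of 4.52 ± 5.69 CPM (SD, n = 4). In DP autonomy it was at 2.60 CPM in RP1136, from 25 reads, and listed at 0 in the other 4 libraries. The groups overlapped, and the fitted log2 fold change was -3.09 (SE 1.83, edgeR quasi-likelihood adjusted p = 0.427; two-sided exact permutation p = 0.175). Without turnover RP1141B it was -1.71, and without autonomy RP1136 Hoxa7 did not pass the filter and could not be fitted. The authors' deposited table for DP cells gave -3.15 with an adjusted p of 0.432.

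Neither gene was called between the stages. DP against DN3 called 34.9% of 11521 genes under turnover and 49% under autonomy, and 0 of the 2 tested members in either. For Hoxa7 the log2 fold change from DN3 to DP was -2.23 under turnover (SE 1.49, edgeR quasi-likelihood adjusted p = 0.267) and 1.10 under autonomy (SE 1.49, adjusted p = 0.575). The autonomy effect differed between the stages for 5.49% of 11521 genes and for neither member, with a difference for Hoxa7 of 3.33 on the log2 scale (SE 2.10, edgeR quasi-likelihood adjusted p = 0.406). The DN3 and DP effects on Hoxa7 were thus not shown to differ. The turnover call depended on the tool: limma voom gave -4.64 with an adjusted p of 0.00524, while the edgeR and DESeq2 fits run did not call it. DP autonomy RP1136 decided the direction under autonomy, where the value was -4.65 without it, and that of the stage difference, which was -2.42 without it.

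Among the DP turnover libraries, the order of Hoxa7 levels was not that of genes typical of earlier stages. RP1141B held the highest DP turnover level of Hoxa7 (12.9 CPM) and the lowest levels of Il2ra (1.25 CPM) and of Kit (0.209 CPM), the receptor for stem cell factor that early progenitors carry. RP1140B, where Hoxa7 was listed at 0, held Il2ra at 10.9 CPM and Kit at 12.4 CPM. In the DN3 turnover libraries Il2ra ran from 279 to 495 CPM and Kit from 32.5 to 80.2 CPM. These are descriptions of single libraries with no test, and Kit and Il2ra were chosen with their values known.

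**Figure D2:**
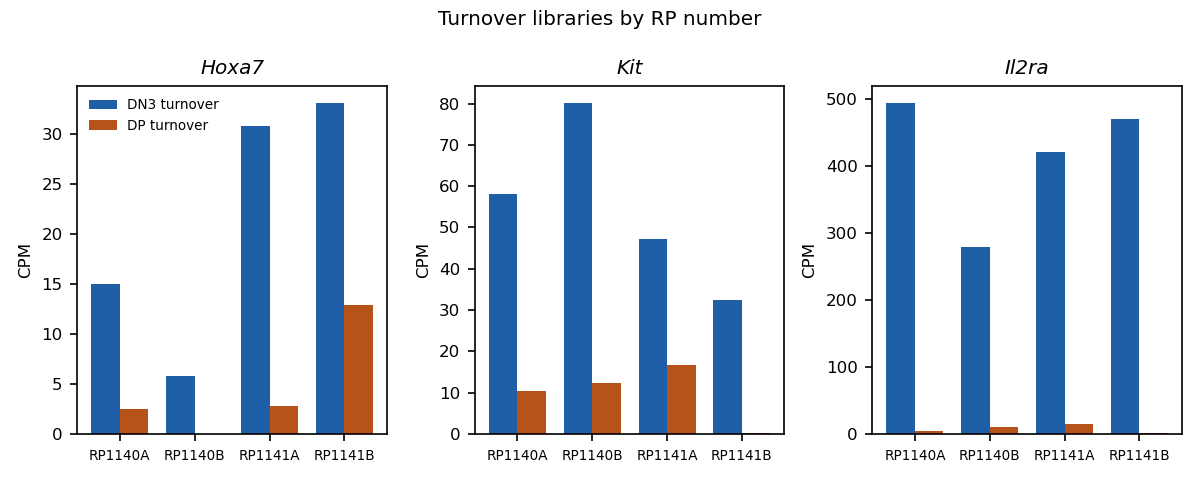
Level in CPM of Hoxa7, Kit and Il2ra (vertical axes start at 0) in the DN3 and DP turnover libraries, side by side for each RP number, which is not known to mark 1 animal. In RP1141B the DP bar of Hoxa7 reaches 12.9 CPM while those of Kit and Il2ra are at 0.209 and 1.25 CPM.

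The remaining Hoxa genes had reads in few libraries, and these were mostly turnover libraries. Hoxa5, which lies next to Hoxa6 in the middle of the cluster, had 5, 0, 16 and 4 reads in the DN3 turnover libraries in the order given above, 1 read in DN3 autonomy RP1133, and 45 reads (1.71 CPM) in DP turnover RP1140B. That DP library had no Hoxa7 read. The DN3 groups overlapped for Hoxa5, with a two-sided exact permutation p of 0.0952. Hoxa6 had 13 reads in DN3 turnover RP1141A, 19 in DP turnover RP1141A and 1 in DN3 autonomy RP1135. Both turnover libraries with Hoxa6 reads thus carried the same RP number, and both also held Hoxa7 reads.

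Hoxa3, the first of the 6 along the cluster and a gene that the thymus epithelium needs to form, had 6 reads in DN3 turnover RP1141B. Of its exon bases, 12.87% are shared with the counted genes Gm28308 and 5730596B20Rik. Hoxa9, the Hoxa gene best known for driving progenitor growth, had 5 reads (0.442 CPM) in DN3 autonomy RP1133 and was listed at 0 in all turnover libraries. The direction seen for Hoxa7 was therefore not seen for Hoxa9, at a depth where its 5 reads are just above the floor. All DP libraries were listed at 0 for Hoxa3, Hoxa9, Hoxa10 and Meis1, and the DP autonomy libraries also for Hoxa5 and Hoxa6. With no filter on low counts 8 of the 9 genes could be fitted in DN3 cells, and Hoxa7 was again the 1 called, with Hoxa5 at -4.05 on the log2 scale (edgeR quasi-likelihood adjusted p = 0.171).

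Among the cofactors, Pbx2, a broadly expressed partner that helps Hox proteins bind DNA, was low in every library and did not pass the test in any comparison. In DN3 turnover it was at 2.85, 1.82, 2.39 and 3.69 CPM (mean 2.68 ± 0.79, SD, n = 4), and in DN3 autonomy at 1.33, 1.49, 3.18, 1.53 and 1.93 CPM (mean 1.89 ± 0.75, SD, n = 5). The groups overlapped, with a log2 fold change of -0.51 (SE 0.53, edgeR quasi-likelihood adjusted p = 0.543; two-sided exact permutation p = 0.175). In DP turnover Pbx2 was at 2.18, 4.41, 7.66 and 1.36 CPM, and in DP autonomy it ran from 0.189 to 9.67 CPM with a median of 3.22. The DP groups also overlapped, with a log2 fold change of 0.14 (SE 0.95, edgeR quasi-likelihood adjusted p = 0.959) whose sign turned under several alternatives. From DN3 to DP the Pbx2 log2 fold change was 0.55 under turnover and 1.20 under autonomy, with edgeR quasi-likelihood adjusted p = 0.652 and 0.198.

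Pbx3, a Pbx gene linked with Hoxa9 and Meis1 in leukaemia, had 10, 2, 0 and 2 reads in DN3 turnover, and 7 reads each in DN3 autonomy RP1135 and DP autonomy RP1135. Meis1, the cofactor that acts with Hoxa9 in stem cells and leukaemia, had its 4 reads (0.316 CPM) in DN3 turnover RP1140A. The one Hoxa gene with a clear level, Hoxa7, was thus found in DN3 turnover cells with Meis1 at 0 to 0.316 CPM.

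Per kilobase of exon, the order of the 2 tested genes turned over between the DN3 groups. In DN3 turnover Hoxa7 was at 2.02 to 11.5 CPM per kb and Pbx2 at 0.499 to 1.01, with no overlap and Hoxa7 above. In DN3 autonomy Hoxa7 was at 0 to 0.277 and Pbx2 at 0.365 to 0.873 CPM per kb, with no overlap and Pbx2 above. In both DP groups the ranges overlapped. Over the groups, mean Hoxa7 per kb ran from 7.36 ± 4.53 in DN3 turnover (SD, n = 4) through 1.57 in DP turnover and 0.181 in DP autonomy to 0.0830 in DN3 autonomy. Each pair of neighbours in that order overlapped between libraries, and DN3 turnover and DN3 autonomy, at its ends, did not.

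Outside the 9 genes, the TALE homeobox genes Pbx4, Meis3 and Tgif1 fell in DN3 autonomy. Of 15 further TALE genes 8 had reads and 5 could be tested. In DN3 cells 0 rose and 3 fell, where 14.9% of all genes were called, with a median log2 fold change over the 5 of -0.97 against -0.05 over all genes tested. In DP cells none of the 5 passed the edgeR quasi-likelihood test, with a median of 0.34 against -0.02. Pbx4, a Pbx family member known mainly from testis, was at 56.0, 62.1, 47.1 and 35.2 CPM in DN3 turnover and at 8.76 to 22.8 CPM in the 5 DN3 autonomy libraries. The groups did not overlap, and the log2 fold change was -1.65 (SE 0.28, edgeR quasi-likelihood adjusted p = 0.00309).

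Meis3, a Meis family member, was at 13.2, 14.9, 12.4 and 11.1 CPM in DN3 turnover and at 3.63, 2.67, 5.46, 2.82 and 3.76 CPM in DN3 autonomy. Again every turnover library lay above every autonomy library, with a log2 fold change of -1.82 (SE 0.32, edgeR quasi-likelihood adjusted p = 0.00361). Tgif1, a TALE repressor of TGF-beta and retinoid responses, named here after its values were seen, fell by 0.97 on the log2 scale (SE 0.17, adjusted p = 0.00376). In the fit of all 18 libraries Tgif1 had an adjusted p of 0.0526. Pknox1, a TALE protein that like Meis pairs with Pbx, was at 0.23 (edgeR quasi-likelihood adjusted p = 0.421). Per kb, Pbx4 averaged 22.6 CPM in DN3 turnover and 7.25 in DN3 autonomy, so it lay above Hoxa7 and Pbx2 in both.

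The stage contrasts of the TALE genes went different ways. From DN3 to DP under turnover, Pbx4 fell by 1.69 and Tgif1 fell by 1.48 on the log2 scale (edgeR quasi-likelihood adjusted p = 0.00585 and 0.00156), and Pknox1 rose by 0.68 (adjusted p = 0.0155). With A and B libraries of an RP number summed, the Pbx4 call was lost at an adjusted p of 0.0689. Under autonomy Meis3 rose by 3.02 and Pknox1 by 0.80 (edgeR quasi-likelihood adjusted p = 1.70e-06 and 0.00146). The autonomy effect was higher in DP than in DN3 cells by 2.05 for Meis3, 2.02 for Pbx4 and 1.51 for Tgif1 (adjusted p = 0.0258, 0.0483 and 0.0443). These 3 calls were not firm. The Meis3 call was lost without DN3 turnover RP1140A, DN3 autonomy RP1137 or DP autonomy RP1136 (adjusted p up to 0.0554), and the Pbx4 and Tgif1 calls were lost without any of 13 and any of 14 of the 18 libraries (adjusted p up to 0.0932 and 0.0882). All 3 were also lost both with A and B libraries summed and with the RP number as a block (adjusted p up to 0.158 for Meis3, 0.205 for Pbx4 and 0.240 for Tgif1).

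**Figure D3:**
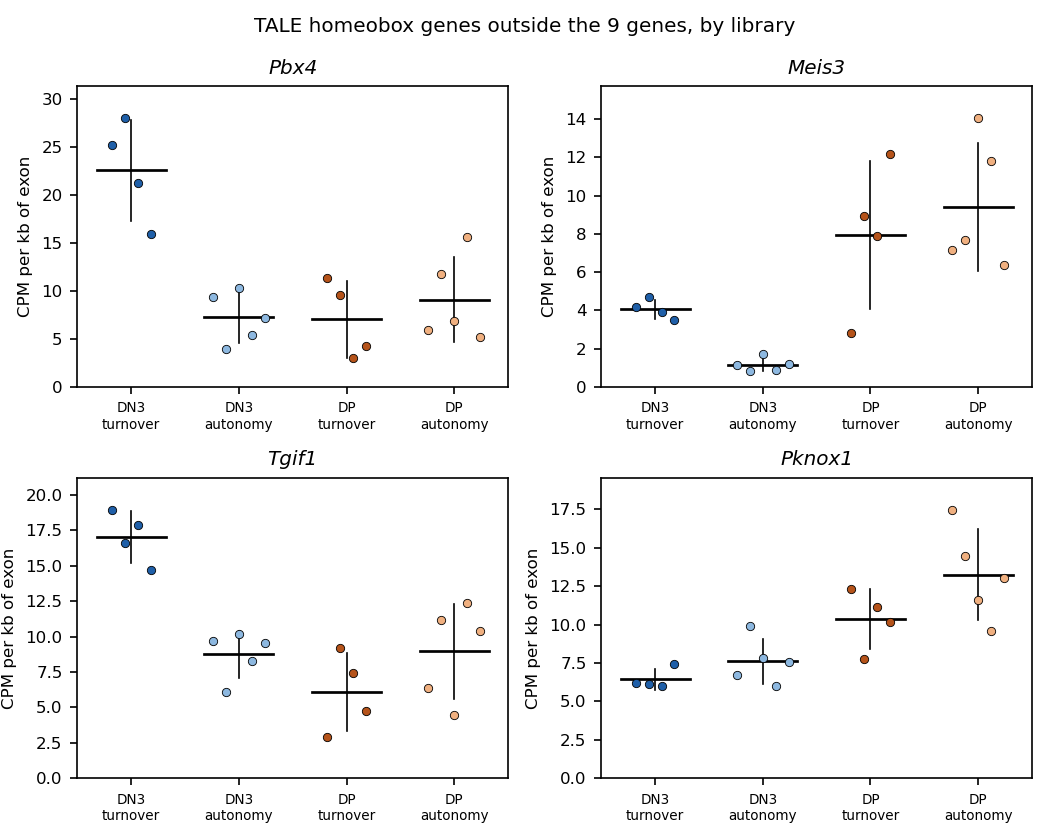
Level of 4 TALE homeobox genes outside the 9 genes, in CPM per kilobase of exon (vertical axes start at 0), in every library of the 4 groups. Points are libraries, horizontal bars group means and vertical bars the SD. Pbx4, Meis3 and Tgif1 separate the DN3 groups and Pknox1 does not.

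Further Hox genes gave almost no reads. In the same cluster Hoxa2 had 11 reads, of which 9 were in DN3 autonomy RP1133, and Hoxa4, Hoxa11, Hoxa13 and Evx1 were listed at 0. Of 28 Hoxb, Hoxc and Hoxd genes, 3 had reads, 79 in all and 64 of them on Hoxb1. None of these genes passed the filter. The cluster's long noncoding transcripts are not in the count table, which holds 16 of the 52 genes that GENCODE M21 places in the locus. Between Skap2 and Hibadh, which average 20.5 and 330 CPM in DN3 turnover, Hoxa7 was the 1 counted gene reported here with a mean above 1 CPM in that group, with Hoxa6 and Hoxa9 at means of 0.228 and 0 CPM in DN3 turnover.

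**Figure D4:**
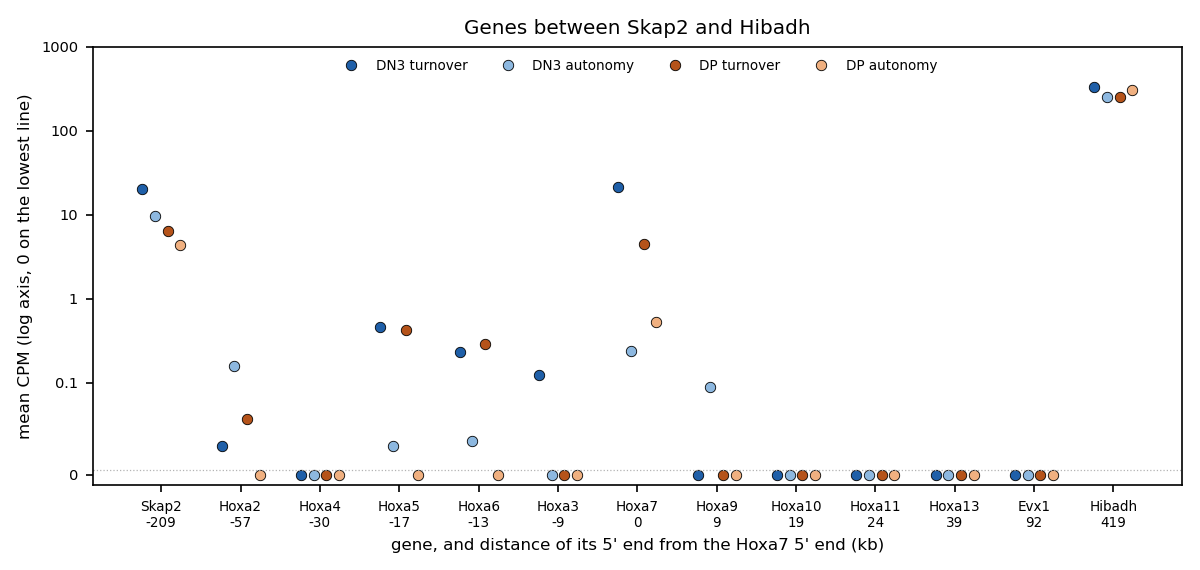
Mean CPM (log axis, with 0 on the lowest line) of 13 counted genes between and including Skap2 and Hibadh in the 4 groups, in order of the distance of the 5′ end from that of Hoxa7 in kb. Hoxa7 averages 21.2 CPM in DN3 turnover while the other Hoxa genes drawn and Evx1 stay below 1 CPM in every group.

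Of 9 genes chosen as flanks of the cluster, 8 were tested in DN3 cells, 0 rose and 2 fell, beside 14.9% of all genes called, with a median log2 fold change of -0.28 against -0.05 over all genes. Skap2, an adaptor protein gene and the nearest counted neighbour on its side, was at 20.5 ± 2.19 CPM in DN3 turnover (SD, n = 4) and 9.65 ± 3.63 in DN3 autonomy (SD, n = 5), a log2 fold change of -1.10 (SE 0.30, edgeR quasi-likelihood adjusted p = 0.0280). That call was lost without any of 5 of the 9 libraries, turnover RP1140A and RP1141A and autonomy RP1133, RP1137 and RP1138 (adjusted p up to 0.0798). Snx10, a sorting nexin, fell by 1.01 (SE 0.23, edgeR quasi-likelihood adjusted p = 0.0132). Neither gene was called with A and B libraries summed or in the fit of all 18 libraries (adjusted p up to 0.462 for Snx10 and 0.379 for Skap2). In DP cells none of 7 flanking genes tested passed the edgeR test.

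Genes that act on Hox loci in other cells changed singly. Of 20 tested genes of the MLL complex and its elongation partners, which keep Hoxa genes active in progenitors, 1 fell in DN3 autonomy and 0 rose, beside 14.9% of all genes called, with a median of -0.07 against -0.05. It was Aff3, a gene of the super elongation family, with a log2 fold change of -1.75 in DN3 cells (SE 0.36, edgeR quasi-likelihood adjusted p = 0.00790), which held under all 17 alternatives, and of -1.27 in DP cells (SE 0.27, adjusted p = 0.0358). The DP call of Aff3 was lost without any of 6 of the 9 libraries, namely the 3 turnover libraries RP1140B, RP1141A and RP1141B and autonomy RP1133, RP1135 and RP1137 (adjusted p up to 0.1004). Kmt2a, which encodes MLL1 itself, was at -0.80 in DN3 cells (edgeR quasi-likelihood adjusted p = 0.0639).

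Of 25 Polycomb genes tested in DN3 cells, whose products silence Hox genes, 2 rose and 1 fell, a share near the 14.9% called over all genes. Phf19, a Polycomb accessory protein, rose by 1.82 (SE 0.49), Ezh2, a methyltransferase of histone H3 lysine 27, rose by 0.56 (SE 0.14), and its relative Ezh1 fell by 1.11 (SE 0.27), with edgeR quasi-likelihood adjusted p = 0.0252, 0.0198 and 0.0166. All 3 calls were lost without turnover RP1140A (adjusted p = 0.0675, 0.0704 and 0.0652), and that of Phf19 also without autonomy RP1133 (0.0509). In DP cells none of 26 Polycomb genes passed the edgeR test. Of 12 other regulators tested in DN3 cells 1 rose and 1 fell, beside the same 14.9% of all genes called. Gmnn, encoding the replication inhibitor geminin, rose by 0.94 (SE 0.14, edgeR quasi-likelihood adjusted p = 0.00124). Kdm6a, a demethylase of histone H3 lysine 27, fell by 0.71 (SE 0.20, edgeR quasi-likelihood adjusted p = 0.0303). The Kdm6a call was lost without any of 6 of the 9 libraries (adjusted p up to 0.0924), and held without turnover RP1141B, autonomy RP1133 or autonomy RP1134. In DP cells Ctcf, the insulator protein gene, fell by 0.63 (SE 0.12, edgeR quasi-likelihood adjusted p = 0.0224), a call lost without any of 4 of the 9 libraries, turnover RP1140B, RP1141A and RP1141B and autonomy RP1133 (adjusted p up to 0.0777).

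**Figure D5:**
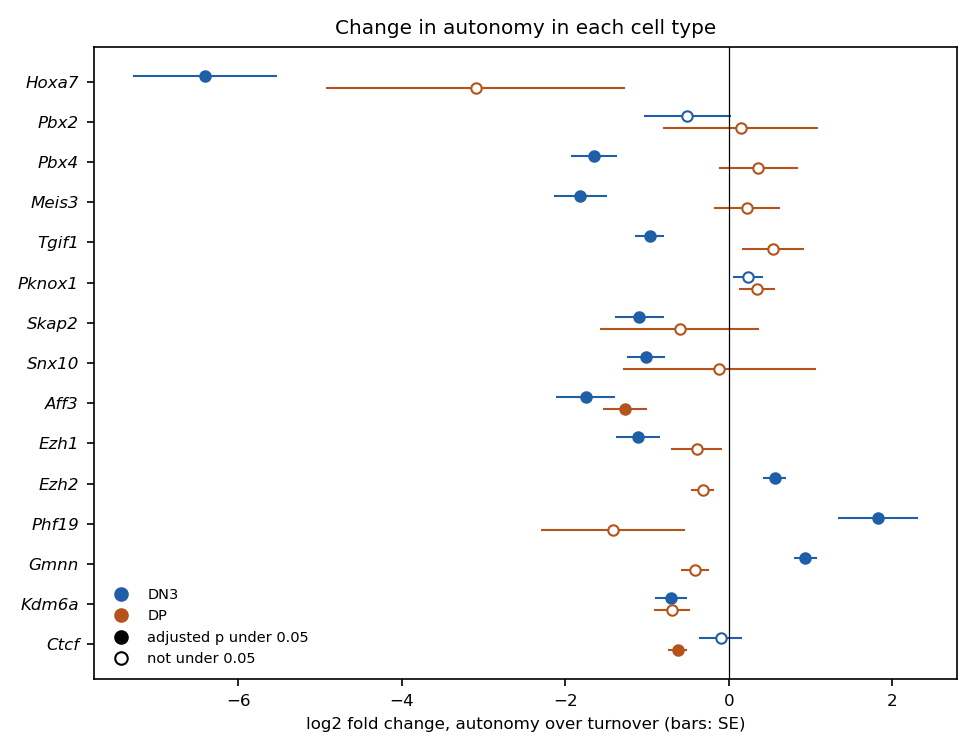
Log2 fold change from turnover to autonomy (horizontal axis, bars are the SE) of the 2 tested genes, other TALE genes, cluster flanks and regulators of Hox loci in DN3 and DP cells. Filled points passed an adjusted p of 0.05. Hoxa7 in DN3 cells lies farthest from 0 of the genes drawn, at -6.41, with a wider SE than the other genes drawn in DN3 cells.

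Kit and Nfe2, genes of early progenitors, fell in DN3 autonomy in the separate DN3 fit. Of 28 genes linked to Hoxa9 and Meis1 in progenitors, 20 were tested in DN3 cells, of which 1 rose, 6 fell and 13 did not pass, beside 14.9% of all genes called, with a median log2 fold change of -1.01 against -0.05. Kit fell by 2.31 (SE 0.48) and Nfe2, a factor of erythroid and megakaryocyte precursors, fell by 2.51 (SE 0.57), with edgeR quasi-likelihood adjusted p = 0.00789 and 0.0121. Id2, an inhibitor of E proteins, rose by 1.20 (SE 0.27, adjusted p = 0.0110). In the fit of all 18 libraries or with A and B libraries summed, Nfe2 and Id2 were not called (adjusted p up to 0.250 and 0.118), and Kit was not called in the former (0.0648). Of 13 T-lineage factors 1 rose and 2 fell in DN3 cells, beside the same 14.9% of all genes called. Lef1, a partner of Tcf7, rose by 0.76 (SE 0.15). Bcl11b, which fixes T-lineage commitment, fell by 1.05 (SE 0.19) and Gfi1, a repressor, fell by 1.61 (SE 0.46). The edgeR quasi-likelihood adjusted p of Lef1, Bcl11b and Gfi1 was 0.00542, 0.00422 and 0.0352. The Gfi1 call was lost without any of 7 of the 9 libraries (adjusted p up to 0.144), and held without turnover RP1141B or autonomy RP1135.

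In DP cells 2 of 14 tested progenitor genes fell and 0 rose, beside 1.72% of all 10339 genes called. They were Myb, a factor of blood progenitors and DP cells, and Dntt, the enzyme that adds bases at receptor joints, at -0.61 and -0.39 on the log2 scale (edgeR quasi-likelihood adjusted p = 0.0296 and 0.0163). Tcf12, an E protein, was the 1 of 13 T-lineage factors called there, at -0.52 (adjusted p = 0.0481). These 3 calls were lost without any of 5, 2 and 8 of the 9 libraries (adjusted p up to 0.0957, 0.0532 and 0.143).

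Summed markers of progenitors, of macrophages and dendritic cells, of fibroblasts and endothelium, and of mast cells and related types were higher in every DN3 turnover library than in any DN3 autonomy library, and the sums of the other non-thymocyte lists overlapped. Of single genes tested in DN3 cells, 18.3% separated the groups in either direction. The lists are not independent. The progenitor list shares Cpa3 with the mast cell list, where it was the 1 called of 2 tested, and Flt3 with the macrophage list. The 17 early thymic progenitor markers, all with reads in DN3 turnover, summed to 207 to 255 CPM there and to 19.2 to 103 CPM in DN3 autonomy, where Lmo2 and Tal1 were at 0. The autonomy libraries with Hoxa7 reads, RP1133 and RP1135, were the ones with the highest sums, 74.4 and 103 CPM, against 19.2 to 42.8 CPM in the other 3. In DP autonomy the order differed. RP1136, the 1 library of that group with Hoxa7 reads, had the lowest sum, 10.1 CPM. RP1135, with Hoxa7 at 0, had the highest, 81.1 CPM. In DN3 turnover RP1140A had the highest sum, 255 CPM, with Hoxa7 at 14.9 CPM. RP1140B had the lowest sum of that group, 207 CPM, and also its lowest Hoxa7 level, 5.80 CPM. The 14 macrophage and dendritic cell markers summed to 47.3 to 60.3 CPM in DN3 turnover and 9.73 to 23.0 CPM in DN3 autonomy, with Adgre1 and C1qc at 0 in turnover. The 14 mast cell, granulocyte, erythroid and platelet markers summed to 56.1 to 123 and 4.80 to 31.6 CPM, with 10 of the 14 at 0 in DN3 turnover. The 12 fibroblast and endothelial markers summed to 89.3 to 111 and 46.8 to 66.7 CPM, with Pdgfra, Col1a1, Lum and Tek at 0 in DN3 turnover. The 13 thymic epithelial markers summed to 148 to 174 and 90.6 to 179 CPM, and Foxn1, Krt5, Krt14 and Pax1, which define these cells, were at 0 in DN3 turnover. The B cell markers summed to 679 to 1518 and 674 to 1367 CPM, with Cd79a, Ms4a1 and Pax5 at 0 in DN3 turnover. The NK and gamma-delta markers summed to 2546 to 3153 and 2418 to 3111 CPM, and the kidney tubule markers to 0.237 to 3.36 and 0.417 to 2.48 CPM. Lists with overlapping sums still held called genes. In DN3 autonomy Cd79b fell, the 1 called of 2 B cell markers tested, beside 14.9% of all genes. Of 6 NK and gamma-delta markers tested, 2 rose and 3 fell, beside the same 14.9% of all genes called. One that rose was Id2, which is also in the list linked to Hoxa9 and Meis1. In DP cells the macrophage and dendritic cell markers summed to 12.9 to 41.5 CPM under turnover and 27.8 to 286 CPM under autonomy. C1qc was the 1 called of 9 tested there, beside 1.72% of all genes. It rose by 10.3 on the log2 scale (SE 1.34, edgeR quasi-likelihood adjusted p = 0.00935), and no alternatives were run for it. C1qc was listed at 0 in every DP turnover library and passed the filter through the autonomy libraries alone. The fitted 10.3 is therefore not a measured fold. The part of these cell types in the Hoxa7 result, or in the levels of DP libraries, was not tested.

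The genes whose levels followed Hoxa7 most closely were found by Pearson correlation of log2 CPM over the 18 libraries, among 11520 genes. They were Emid1 (r = 0.84), Ankrd35 (0.83), Ms4a6b (0.83), Cd79b (0.80), Fam184a (0.80) and Uchl1 (0.80). The 18 libraries share their 4 groups, so the points are not independent of each other. Over the 9 DN3 libraries alone the same 6 genes had r of 0.73 to 0.92. Cd79b, also a B cell marker of the list above, fell by 1.48 in DN3 autonomy (SE 0.32, edgeR quasi-likelihood adjusted p = 0.00975). The Cd79b call was lost with A and B libraries summed (adjusted p = 0.0575). Emid1 averaged 102 ± 7.66 CPM in DN3 turnover (SD, n = 4) and 37.2 ± 22.1 in DN3 autonomy (SD, n = 5). Uchl1, a neuronal ubiquitin hydrolase, averaged 5.10 ± 1.41 and 0.515 ± 0.510 CPM in the same groups. Meis1 did not pass the filter, so no genes were sought that resemble it.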

How the data were processed

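RNA from sorted DN3 and DP thymocytes was separated from genomic DNA with oligo-dT beads and made into Pico Nextera libraries, per the labels' protocols. FastQC, HISAT2, featureCounts and DESeq2 with the builds mm10 and GRCm38 were named in the submitters' processing notes, with no versions given in the sources used here, nor whether counting used strand. The deposited count table held raw counts of reads per gene for 18 libraries, and every count column was assigned to a library by its name. The authors' deposited comparison tables gave log2 fold changes, their standard errors and p-values with adjusted p-values from DESeq2 for DN3 and DP cells, and were used for gene names and as values named as theirs. Per the file headers these tables also hold 2 score columns, the mean of normalized counts and the Wald statistic, which were not used in a test.

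Tests used edgeR 4.0.16 (R 4.3.3) on the counts as deposited, with TMM scaling, filterByExpr and quasi-likelihood tests over all genes that passed, adjusted by Benjamini-Hochberg at a threshold of 0.05. DN3 and DP libraries were fitted separately for autonomy against turnover, and all 18 together for the stage contrasts and the difference of effects. An SE is the log2 fold change over the root of the F statistic. CPM used TMM factors of all 18 libraries, and CPM per kb the union exon length in GENCODE M21 (GRCm38). The floor was 3 reads per library, and single genes were also compared by exact permutation of CPM. DESeq2 1.42.0, limma voom (limma 3.58.1), other scalings and filters, summed A and B libraries, an RP block and each library left out were tried, and the procedure was tested on simulated data.

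The members, gene lists and marker lists were chosen with earlier results of these data known. All 9 members are named, as are the 6 genes most like Hoxa7 (log2 CPM, prior count 2). Of each list other than the marker lists, up to 2 genes per direction are named. These had the largest change among those past the threshold in autonomy against turnover. Marker lists were given mainly as sums, and not all genes called in them are named. For example, Ccr9, a DP stage marker, fell by 4.74 on the log2 scale in DN3 autonomy (SE 0.52, edgeR quasi-likelihood adjusted p = 0.000234). Other genes named were chosen after their values were seen. One gene of the locus is not reported here.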

Additional observations from a re-analysis of the deposited data

Results flagged for a closer look

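In 11 of the 20 groups of libraries that could be checked, 1 library stood apart from all others of its group, which were at 0 (Dixon's test at 95%). Chance flags about 1 group in 20, and groups in which a single library has reads meet the criterion by their form. For Hoxa3 the library was DN3 turnover RP1141B at 0.492 CPM (6 reads), and for Meis1 it was DN3 turnover RP1140A at 0.316 CPM (4 reads). For Hoxa5 the libraries were DN3 autonomy RP1133 at 0.0885 CPM (1 read) and DP turnover RP1140B at 1.71 CPM (45 reads). For Hoxa6 they were DN3 turnover RP1141A at 0.913 CPM (13 reads), DN3 autonomy RP1135 at 0.0993 CPM (1 read) and DP turnover RP1141A at 1.16 CPM (19 reads). For Hoxa7 it was DP autonomy RP1136 at 2.60 CPM (25 reads), and for Hoxa9 DN3 autonomy RP1133 at 0.442 CPM (5 reads). For Pbx3 they were DN3 autonomy RP1135 at 0.695 CPM and DP autonomy RP1135 at 0.743 CPM (7 reads each). The RP numbers RP1141A and RP1135 recur between DN3 and DP libraries for Hoxa6 and Pbx3.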

How the results depend on the processing

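The count of members called was the same under all 17 alternatives in DN3 and in DP cells, under 25 of 26 for DP against DN3 in turnover (limma voom called 1, Hoxa7), and under all 26 for autonomy and for the difference of effects. Of 52 gene results called, 19 held under every alternative run. Hoxa7 in DN3 cells held, at -7.66 to -5.94 with 1 library left out and -7.02 by limma voom. Signs turned for 7 results that had not passed the test. Pbx2 in DP cells was -0.20 by limma voom, -0.11 with A and B libraries summed and -0.38 to 0.69 with 1 library left out. With 1 library left out, Meis3 in DP cells ran from -0.057 to 0.50, Pbx2 from DN3 to DP under turnover from -0.0094 to 0.86, and Pknox1 in the difference of effects from -0.0026 to 0.22. Hoxa7 from DN3 to DP under autonomy was -0.22 by limma voom, -4.22 with the RP number as a block and -4.65 to 2.36 with 1 library left out, and Tgif1 was -0.0028 by limma voom and -0.11 to 0.20 with 1 left out. The Hoxa7 difference of effects was -0.86 with the block and -2.42 to 4.74 with 1 left out. Except for the libraries named as left out, the cause was not tested. Same-numbered DN3 and DP libraries deviated together at most weakly (r 0.00118 to 0.0521 over 8 pairs). Among libraries of the same condition, 4 of the 8 matched best with their own number. These values cannot exclude that the numbers mark pairs, and their meaning is unknown. The main fits did not take them as pairs, and with the RP number as a block no member was called. No paired analysis was possible for autonomy against turnover because those groups share no RP number. Total counts in place of TMM moved the median DN3 log2 fold change of all genes from -0.05 to -0.20. Depth limits the 7 untested genes, most of whose libraries are under 3 reads.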
